A study of Caenorhabditis elegans with 55 samples.

Results

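Small nucleolar RNAs (snoRNAs) were followed through immunoprecipitates (IPs) of Argonaute proteins from *Caenorhabditis elegans*. The members are every feature whose class in the deposited small RNA tables is snoRNA, in the sense orientation, which gave 318 of 70241 features over 10 tables, and all 318 had a gene symbol. Each table belongs to 1 strain and holds 2 IP and 2 input libraries, 40 libraries in all. Whole worms at the L4 larval stage were grown at 20 C, input small RNA was taken from the lysates, and RNA was treated with a 5′ polyphosphatase before library preparation. Reads were short, so a value counts small RNA reads from a snoRNA locus and does not show whether the intact snoRNA or a fragment was bound.

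snoRNAs guide the chemical modification of ribosomal and spliceosomal RNA in the nucleolus. Box C/D snoRNAs guide the methylation of riboses and box H/ACA snoRNAs guide the conversion of uridine to pseudouridine, each in a complex with a fixed set of core proteins. Many lie in introns of protein-coding genes and are released when the intron is processed. Argonautes bind small RNAs: CSR-1, WAGO-4 and WAGO-10 belong to the worm-specific Argonautes that bind small RNAs antisense to transcripts. ALG-3 and ALG-4 act in the germline during spermatogenesis. The deposited tables do not say which snoRNAs are C/D and which are H/ACA, and give no target, so single members are named here without a role.

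The IPs came from these strains. JMC248 carries *wago-10(tor162[3xflag::wago-10])*, and its IP is titled WAGO-10. GR3035 carries the reporters *mgIs75[rpn-2::gfp]*, a proteasome subunit joined to GFP, and *mgTi14[pbs-5::mcherry]*, with no *csr-1* allele in its label, and its IP is titled CSR-1a. GR3039 carries *csr-1(mg657[G91R])*, and its IP is titled CSR-1a. JMC151 has GFP and 3xFLAG in exon 1 of *csr-1* (allele tor160), which marks the longer isoform CSR-1a. JMC205 carries *alg-3(tor141[gfp::3xflag::alg-3])* and JMC207 carries *alg-4(tor143[gfp::3xflag::alg-4])*. JMC101 carries *csr-1(tor67[gfp::3xflag::csr-1])*, which tags both CSR-1 isoforms. JMC164 combines the tor67 tag with *csr-1(mg660[G120\*])*, and its IP is titled CSR-1b, the shorter isoform. JMC161 carries *unc-119(ed3)*, the transgene *mgTi11[rpl-28::csr-1a exon1::gfp]* and *csr-1(tm892)*; the *rpl-28* promoter is that of a ribosomal protein gene, its sample titles say CSR-1 and its table says CSR-1a. JMC223 carries *wago-4(tor117[gfp::3xflag::wago-4])*. All strains derive from the wild type N2.

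The sample labels describe every IP as made with GFP-binding beads, and the protocol also names a rabbit polyclonal antibody against CSR-1a without saying which IPs it served. The genotype labels place no GFP on the Argonaute in JMC248, GR3035 and GR3039, and place GFP on it in the other 7 strains. No mock IP or IP from untagged wild type worms was analysed here. The table values are RPM, reads per 1000000 reads of the library, with each table scaled per library, so levels set side by side between strains cross tables. Estimated depth ran from 325376 reads in JMC223 input replicate 2 to 30284492 reads in JMC205 input replicate 2. As a check of the labelled stage, the let-7 5p miRNA, which rises in late larvae, stood at 1752 to 10471 RPM in the 20 inputs and the lin-4 5p miRNA at 270.5 to 2513 RPM.

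The first comparison asked how much of each library came from snoRNA loci. snoRNA reads made up a larger share of the IP than of the input in 3 strains, JMC248, GR3035 and GR3039, and a smaller share in 6. In WAGO-10 IPs of JMC248 the share was 2.60% and 5.12%, against 0.144% and 0.105% of the inputs. In the CSR-1a IPs of GR3039 it was 2.45% and 3.16%, against 0.130% and 0.147%. In the CSR-1a IPs of GR3035 it was 0.903% and 0.398%, against 0.0434% and 0.0505%. In each of these strains both IP libraries lay above both inputs. The means were 3.86% ± 1.78 in JMC248 IPs and 0.125% ± 0.0277 in its inputs, 2.81% ± 0.501 in GR3039 IPs and 0.139% ± 0.0122 in its inputs, and 0.651% ± 0.357 in GR3035 IPs and 0.0469% ± 0.00502 in its inputs (SD, n = 2 each). The ratio of the means was 30.9, 20.2 and 13.9 for JMC248, GR3039 and GR3035. The gap in JMC248 was 3.73 percentage points and was 2.47 points without IP replicate 2; the gap in GR3035 was 0.604 points and was 0.351 points without IP replicate 1.

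The IPs with GFP on the Argonaute went the other way or showed no separation. JMC151, whose IP is also titled CSR-1a, had 0.164% and 0.156% in its IPs, against 0.118% and 0.274% in its inputs, so the IP values lay between the input values. That gap of -0.0362 points was 0.042 points without input replicate 2 and -0.114 without input replicate 1. ALG-3 IPs held 0.0733% and 0.0749%, against 0.109% and 0.102% in inputs, and ALG-4 IPs held 0.0678% and 0.0805%, against 0.110% and 0.147% in inputs. For ALG-4 the gap of -0.0547 points was -0.0362 points without input replicate 2. In both ALG strains the IP libraries lay below both inputs.

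The lowest shares were in the IPs of JMC101, JMC164, JMC161 and JMC223. JMC151, where CSR-1a is tagged too, was not among them. JMC101 IPs held 0.00781% and 0.00808% snoRNA reads, against 0.084% and 0.0587% in inputs. CSR-1b IPs of JMC164 held 0.0211% and 0.00985%, against 0.113% and 0.0381%, and JMC161 IPs held 0.019% and 0.0167%, against 0.0647% and 0.0479%. WAGO-4 IPs held 0.00796% and 0.00537%, against 0.407% and 0.0814%. In all 4 strains the IP libraries lay below the inputs. Reads antisense to coding genes averaged 89.3%, 82.9%, 74.6% and 81.7% of IPs in JMC101, JMC164, JMC161 and JMC223. In inputs they averaged 31.4%, 32.4%, 30.2% and 25%. The snoRNA share was not tested apart from this rise. The miRNA share was lower too, with ratios of IP to input means of 0.077, 0.233, 0.131 and 0.0493. For snoRNAs these ratios were 0.111, 0.205, 0.318 and 0.0273. The inputs of JMC164 and JMC223 differed widely between replicates: the JMC164 gap of -0.06 points was -0.0226 without input replicate 1 and -0.0974 without input replicate 2, and the JMC223 gap of -0.237 points was -0.0748 without input replicate 1 and -0.4 without input replicate 2. With 2 libraries against 2, the smallest p of an exact permutation test, two-sided, is 33.3%, so no p is given for shares. The 3 strains with the higher IP share are the 3 with no GFP on the Argonaute by genotype, so Argonaute and means of capture cannot be told apart. In whole worms, fewer cells with an RNA and less of it per cell cannot be told apart.

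**Figure D1:**
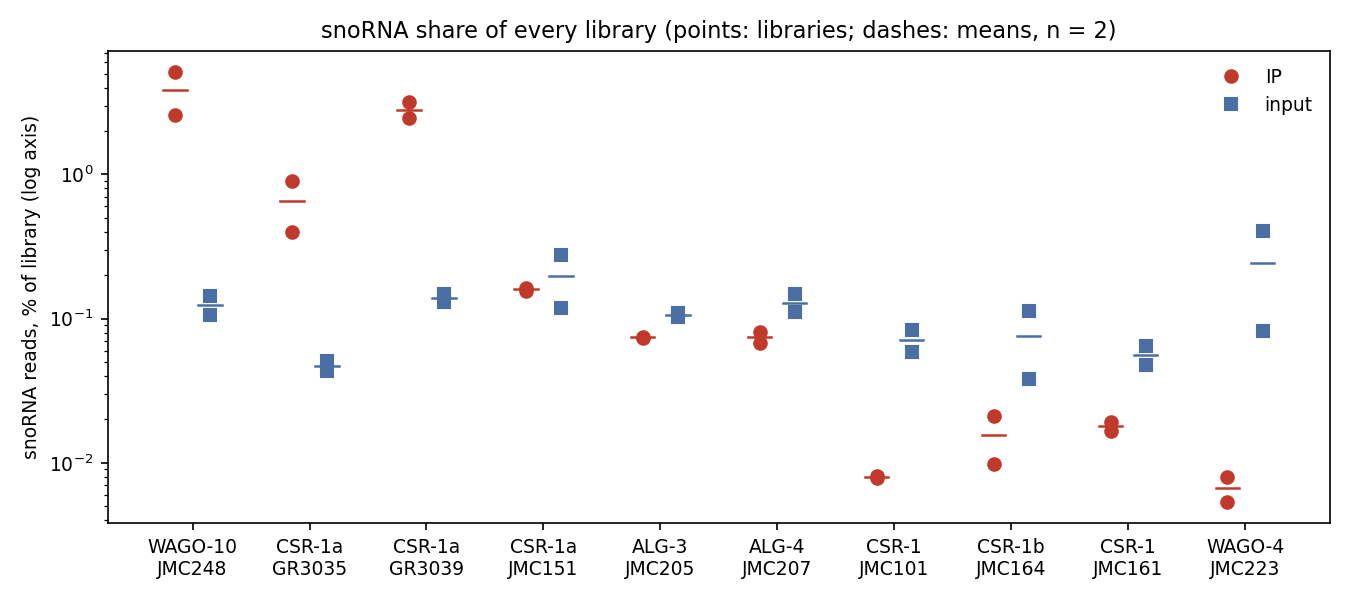
Share of snoRNA reads (percent of library, log axis) in every library of the 10 strains, IP as red circles left of input as blue squares, with a dash at the mean of 2. The IPs of JMC248, GR3035 and GR3039, between 0.398% and 5.12%, stand above all 20 inputs except for the lower GR3035 library, which is just below the highest input at 0.407%.

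In JMC248, GR3035 and GR3039 other structural RNA did not all move with snoRNAs. The tRNA share was lower in the IP than in the input in all 10 strains, and in JMC248 it averaged 0.322% ± 0.0852 in IPs and 2.73% ± 0.125 in inputs (SD, n = 2 each). The share of small nuclear RNA, the RNA of the spliceosome, averaged 0.403% ± 0.0579 in JMC248 IPs and 0.212% ± 0.0421 in inputs, and 0.468% ± 0.27 in GR3035 IPs and 0.217% ± 0.03 in inputs (SD, n = 2 each). In GR3039 it averaged 0.176% ± 0.0237 in IPs and 0.237% ± 0.0374 in inputs (SD, n = 2 each). Where both IPs lay below the inputs in snoRNA share, the mean snRNA, tRNA and ribosomal RNA shares were lower too. In JMC101 the ratio of IP to input means was 0.111 for snoRNA, 0.0793 for snRNA, 0.0485 for tRNA and 0.14 for ribosomal RNA. In JMC205 these ratios were 0.704, 0.313, 0.0427 and 0.842. snRNA features called enriched, by the rule given next, numbered 32 of 41 tested in JMC248, 27 of 51 in GR3035 and 6 of 36 in GR3039. Of all features 9.73%, 20.9% and 12.1% were enriched in these strains, so the GR3039 count was near that share. snRNA features called lower numbered 0, 2 and 3, beside 14.8%, 13.3% and 9.72% of all features.

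Single members were tested with limma on log2(RPM + 1) over every feature of the table. Features entered the test with 10 or more estimated reads in 2 or more of the 4 libraries, and were called when the Benjamini-Hochberg adjusted p was under 0.05 and the log2 fold change was 1 or more in either direction. Fold changes are on the log2(RPM + 1) scale, which understates the change of low features. In JMC248 102 of 114 tested members were enriched and 0 lower, beside 9.73% of all features enriched and 14.8% lower. In GR3039 100 of 111 were enriched and 0 lower, beside 12.1% and 9.72% of all features. In GR3035 86 of 117 were enriched and 1 lower, beside 20.9% and 13.3%. At an unadjusted p under 0.05, with no threshold on fold, the lower members of limma's test numbered 0 in JMC248 and 1 in GR3039.

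The median log2 fold change of tested members was 3.22 in JMC248, 3.32 in GR3039 and 1.81 in GR3035, while that of all features tested was -0.30, 0.03 and 0.08. The rest of the 318 members did not reach the filter or were not listed in that table. A member could reach the filter through its IP reads alone. Among the members with at least 10 reads in both inputs, an alternative added after the data were seen, 75 of 87 were enriched in JMC248, 68 of 79 in GR3039 and 74 of 95 in GR3035. The share of all features enriched under that filter is not given, so these counts have no background.

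**Figure D2:**
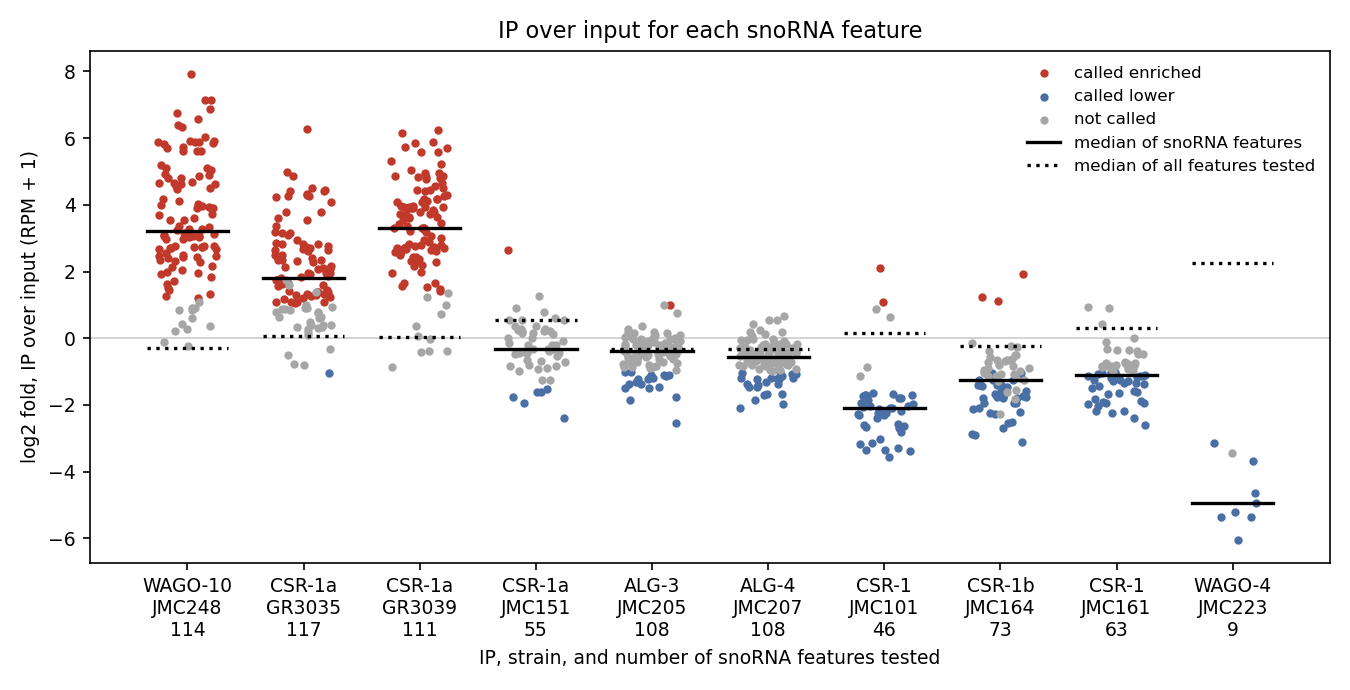
log2 fold change of IP over input for each snoRNA feature tested (points; red called enriched, blue called lower, grey not called), by strain, with the number tested under each strain. Solid lines are medians of snoRNA features and dotted lines medians of all features tested; in JMC248, GR3035 and GR3039 the solid line is at 3.22, 1.81 and 3.32, above the dotted one.

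The counts in the other 7 IPs were low for enrichment and varied for depletion. Enriched members were 1 of 55 tested for JMC151, 1 of 108 for JMC205, 0 of 108 for JMC207, 2 of 46 for JMC101, 3 of 73 for JMC164, 0 of 63 for JMC161 and 0 of 9 for JMC223. At an unadjusted p under 0.05 limma gave 3 enriched members in JMC207, 2 in JMC161 and 0 in JMC223. Among all features in those strains 32.5%, 22%, 26.1%, 36.1%, 27.9%, 34.8% and 54.8% were enriched, in that order. Lower members numbered 6 in JMC151, 19 in JMC205, 24 in JMC207, 40 in JMC101, 38 in JMC164, 36 in JMC161 and 8 in JMC223, beside 20.2%, 28.8%, 32%, 32.2%, 27.3%, 26.3% and 11.2% of all features. Members were thus called lower more often than all features in JMC101, JMC164, JMC161 and JMC223, counts that carry no test. A member could also reach the filter through its input reads alone, and could then hardly be called anything but lower. Members with at least 10 reads in both IPs numbered 19, 10, 38 and 0 in these 4 strains. In both inputs they numbered 42, 21, 52 and 6. How far the filter raised the lower counts was not tested.

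These depletion counts moved with single libraries, in part because fewer members then reached the filter. The 6 of 55 lower members of JMC151 were 1 of 53 without IP replicate 1, 3 of 46 without IP replicate 2 and 1 of 43 without input replicate 2. The 24 of 108 in JMC207 were 16 of 96 without input replicate 2, and the 40 of 46 in JMC101 were 26 of 33 without input replicate 1. In JMC164 the 38 of 73 were 20 of 24 without IP replicate 1, 11 of 24 without input replicate 1 and 58 of 73 without input replicate 2. The 36 of 63 in JMC161 were 23 of 49 without input replicate 1, and the 8 of 9 in JMC223 were 3 of 3 without input replicate 1. The lower counts of all features without 1 library are not given, so these counts have no background. With no filter on low values, the lower members were 54 of 182 in JMC223, beside 2564 of 48531 features. In JMC151 they were 0 of 170, where 0 of all features were called either and 12 members were lower at an unadjusted p under 0.05 (limma). Scaling by the median of ratios in place of the library total gave 5 of 108 lower members in JMC205, 8 of 108 in JMC207 and 10 of 55 in JMC151. All features lower with that scaling were 4050 of 19460, 4382 of 18383 and 2262 of 9262, in that order. A pseudocount of 5 RPM gave 4 of 108 in JMC205 and 8 of 108 in JMC207. In JMC101, JMC164 and JMC161 it gave 19 of 46, 13 of 73 and 11 of 63. All features lower with that pseudocount were 2453 of 19460, 2694 of 18383, 3121 of 16094, 2973 of 20467 and 2549 of 18726.

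The member with the largest enrichment in JMC248 was C27H5.9, a snoRNA inside *pdl-1*. It had 3479 and 16356 RPM in WAGO-10 IPs, against 33.1 and 27.3 RPM in inputs (log2 fold change 7.92, SE 0.56, adjusted p 2.1e-05, limma). In GR3035 it had 1652 and 614.3 RPM in IPs, against 12.8 and 11.1 RPM in inputs, a log2 fold change of 6.29. In GR3039 it had 2107 and 3195 RPM in IPs, against 36.5 and 53.6 RPM in inputs, a log2 fold change of 5.84. Every IP library of these strains lay far above both of its inputs, and the 2 IP libraries of JMC248 stood well apart.

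The same member was level between IP and input in the ALG-3 strain, with 41.3 and 41.6 RPM in IPs, against 45.9 and 37.8 RPM in inputs, and the groups overlapped. In JMC101 it was lower, with 1.95 and 0.38 RPM in IPs, against 12.7 and 10.1 RPM in inputs (log2 fold change -2.61, adjusted p 0.0025, limma). C27H5.9 alone supplied 13.4% and 32% of the snoRNA reads of JMC248 IP replicates 1 and 2. Without it the JMC248 shares were 2.25% and 3.48% in IPs, against 0.141% and 0.102% in inputs.

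H06I04.8 lies inside the ribosomal protein gene *rps-27A* and was the leading member by RPM in all 4 IP libraries of GR3035 and GR3039. It had 6294 and 6578 RPM in GR3039 IPs, against 134.3 and 106.8 RPM in inputs (log2 fold change 5.74, SE 0.21, adjusted p 5.9e-09, limma). In GR3035 it had 2241 and 1051 RPM in IPs, against 48.1 and 56.1 RPM in inputs, a log2 fold change of 4.86. In JMC248 it had 1937 and 3492 RPM in IPs, against 72.8 and 67.9 RPM in inputs, a log2 fold change of 5.19. It supplied 20.8% to 26.4% of the snoRNA reads in those 4 IP libraries. RPM is not divided by length, so the order of members is an order of reads and not of molecules.

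In JMC151 H06I04.8 had 444.7 and 165.8 RPM in IPs, against 116.7 and 106.2 RPM in inputs. Both IP libraries were higher and the 2 groups did not overlap, yet the log2 fold change of 1.28 (SE 0.60) had an adjusted p of 0.064 (limma). JMC101 IPs had 1.78 and 3.8 RPM, against 50.6 and 23.7 RPM in inputs, a log2 fold change of -3.29.

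T06C12.16, outside any coding gene, was at similar height. It had 3153 and 3809 RPM in GR3039 IPs, against 85.3 and 96.9 RPM in inputs, a log2 fold change of 5.24 (adjusted p 5.9e-09, limma). In JMC248 it had 1336 and 1895 RPM in IPs, against 82.4 and 37.5 RPM in inputs, and in GR3035 637.1 and 397.3 RPM in IPs, against 20.4 and 22.4 RPM in inputs. The groups did not overlap in any of the 3 strains. Y39G10AR.24, outside coding genes and overlapping the noncoding gene Y39G10AR.26, had 1596 and 1491 RPM in GR3039 IPs, against 98.9 and 100.6 RPM in inputs. Its log2 fold changes were 3.94 in GR3039, 4.68 in JMC248 and 2.94 in GR3035.

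Members with few input reads were enriched as well. T04A8.17, inside *ppat-1*, had 1270 and 2115 RPM in JMC248 IPs, against 10.1 and 11.1 RPM in inputs (log2 fold change 7.15, SE 0.26, adjusted p 5e-07, limma). It led the list of log2 fold changes in GR3039 with 6.25, from 265 and 629.8 RPM in IPs, against 4.11 and 4.64 RPM in inputs. D1054.17, inside D1054.3, had 254.7 and 732.3 RPM in JMC248 IPs, against 2.87 and 2.46 RPM in inputs. W05B2.9, inside *dhc-4* and overlapping the noncoding gene W05B2.10, had 104.9 and 149.5 RPM in GR3039 IPs, against 0.715 and 0.844 RPM in inputs, a log2 fold change of 6.15. IPs and inputs were apart for each of these members in both strains.

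R12E2.17, inside the proteasome gene *rpn-8*, and D1007.20, inside the ribosomal protein gene *rpl-24*, were among the largest changes in GR3035. R12E2.17 had 293.7 and 134 RPM in GR3035 IPs, against 4.18 and 6.64 RPM in inputs, a log2 fold change of 4.99. D1007.20 had 90.7 and 37.4 RPM in GR3035 IPs, against 1.01 and 2.67 RPM in inputs, a log2 fold change of 4.45. C46C2.8 and C53B7.8 were enriched in all 3 strains too, with log2 fold changes of 6.03 and 6.77 in JMC248. Of their values of up to 200 reads, 15 of 25 and 28 of 29 were not whole reads within 0.02 reads. How reads matching several loci were divided is not stated, so these 2 members are uncertain.

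**Figure D3:**
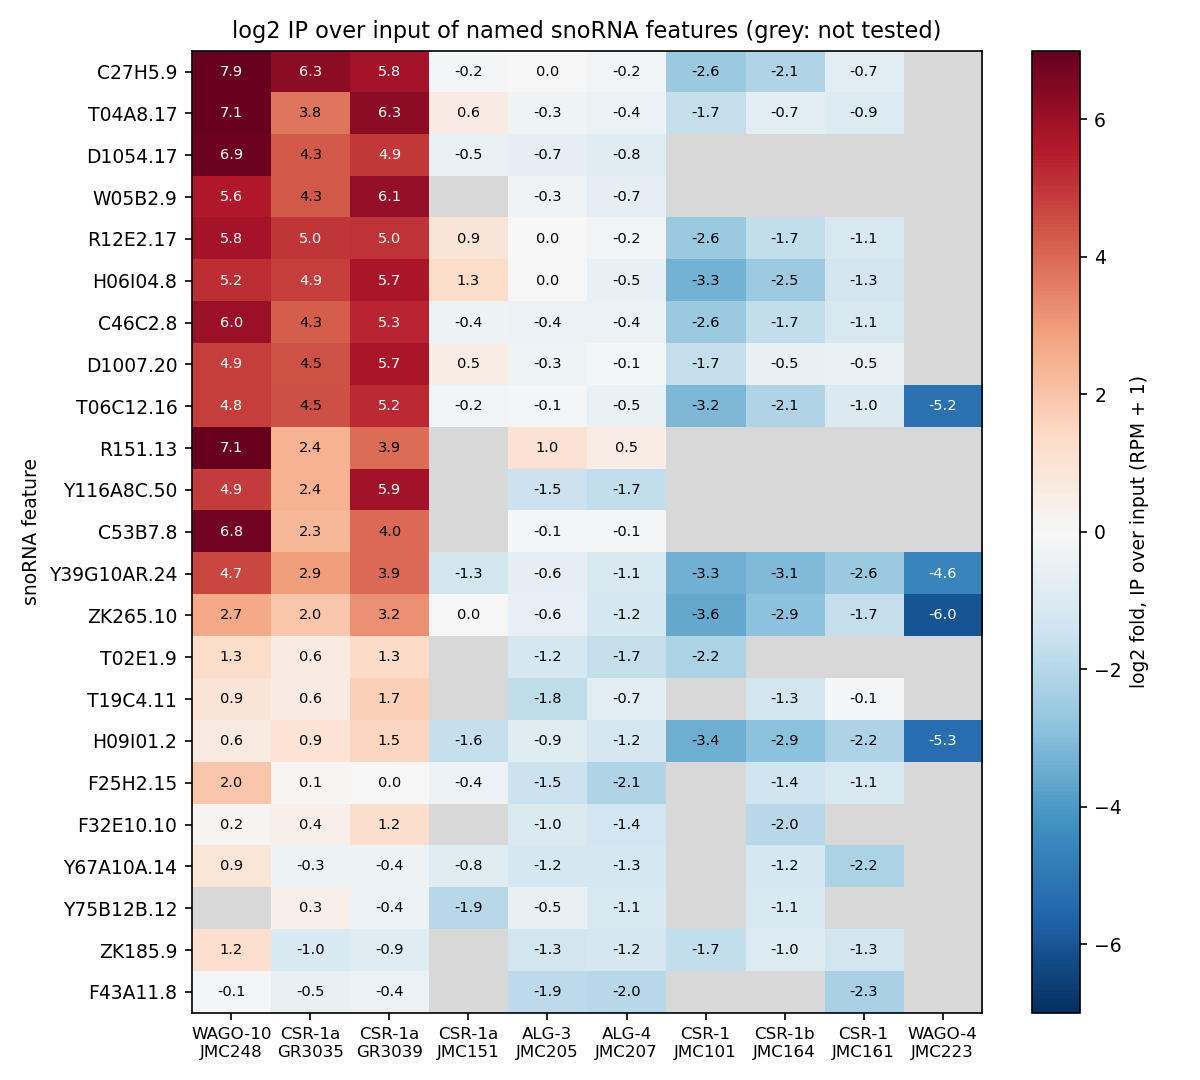
log2 fold change of IP over input (colour and number) for named snoRNA features in the 10 strains, ordered from the top by their mean over JMC248, GR3035 and GR3039; grey cells were not tested, and values past the ends of the colour scale take the end colour. C27H5.9 is at the top with 7.92 in JMC248, and F43A11.8 at the bottom with -0.11.

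Enrichment overlapped between the 3 IPs. Of 103 members tested in JMC248, GR3035 and GR3039, 82 were enriched in all 3 and 5 in none, which was 79.6% and 4.85%. Of all 11974 features tested in the 3 strains, 6.39% were enriched in all 3 and 70.9% in none. By level, at 5 RPM or more in both IP libraries, 64 of 113 members were held by all 3, without a share of all features beside it. Over all members, 112 were enriched in at least 1 of the 3. Across members, the log2 fold changes of GR3035 and GR3039 had a Pearson correlation of 0.83 (105 members), those of JMC248 and GR3039 0.78 (105) and those of JMC248 and GR3035 0.76 (108). These points share libraries within a strain and genes are not independent replicates, so the values are descriptive. Between these 3 IPs and the others, JMC223 left out for its 9 members, the correlation ran from -0.37 to 0.39. Among those other IPs it was 0.93 for JMC101 with JMC164 and 0.78 for JMC205 with JMC207. It was 0.78 for JMC101 with JMC161 and 0.74 for JMC164 with JMC161, and the remaining pairs ran from -0.03 to 0.41. A correlation of this height was thus not particular to JMC248, GR3035 and GR3039.

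The 82 members enriched in all 3 IPs were not enriched elsewhere except R151.13 in JMC205. Lower calls among them were 37 of 39 tested for JMC101, 33 of 53 for JMC164, 29 of 51 for JMC161 and 7 of 8 for JMC223. Over all tested members they were 40 of 46, 38 of 73, 36 of 63 and 8 of 9, beside 32.2%, 27.3%, 26.3% and 11.2% of all features. Among the 82 they were 4 of 48 for JMC151, 9 of 79 for JMC205 and 12 of 79 for JMC207. Over all tested members they were 6 of 55, 19 of 108 and 24 of 108, beside 20.2%, 28.8% and 32% of all features. The median log2 fold change of the 82 was -2.13 in JMC101, -1.47 in JMC164, -1.10 in JMC161, -0.21 in JMC151, -0.39 in JMC205 and -0.52 in JMC207. These members had been picked by their enrichment in the 3 strains, and the other 7 tables had no part in that. They are part of all tested members, so their lower calls are not a separate result and carry the same limit from the filter.

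Across tested members the correlation of the fold change with log2 input was 0.11 in JMC248, 0.11 in GR3039 and 0.38 in GR3035. In JMC101, JMC164 and JMC161 it was -0.80, -0.73 and -0.68. Input is part of the fold change, and a member near 0 in both IPs takes its fold change from the input and the pseudocount.

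Some members did not follow the others. H09I01.2, which overlaps the noncoding gene H09I01.4, led the snoRNA reads of JMC248 input replicate 1 and had 97.2 and 98.3 RPM in JMC248 IPs, against 124.6 and 32.4 RPM in inputs, so the groups overlapped. In GR3035 it had 24.8 and 22.9 RPM in IPs, against 11 and 13.1 RPM in inputs, a log2 fold change of 0.93, under the threshold of 1. In GR3039 it was enriched, with 351.5 and 563.6 RPM in IPs, against 119.8 and 207.8 RPM in inputs (log2 fold change 1.49, adjusted p 0.0014, limma).

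The 5 members tested in all 3 and enriched in none were F22D6.16, F32E10.10, F43A11.8, M163.14 and Y67A10A.14; F22D6.16 is named only to complete this count. F32E10.10 had 20.8 and 27 RPM in JMC248 IPs, against 25 and 16.6 RPM in inputs, with overlapping groups. Y67A10A.14 had 19.5 and 28.6 RPM in JMC248 IPs, against 7.2 and 21.7 RPM in inputs. F43A11.8 had 6.48 and 13.9 RPM in JMC248 IPs, against 3.54 and 27.6 RPM in inputs, and its log2 fold change of -0.11 was 1.22 without JMC248 input replicate 2 and -1.44 without input replicate 1. For F43A11.8 and Y67A10A.14, 32 of 36 and 34 of 37 values of up to 200 reads were not whole reads, so both are uncertain. ZK185.9, inside ZK185.2, went both ways. It was enriched in JMC248, with 8.66 and 6.2 RPM in IPs, against 3.63 and 1.84 RPM in inputs (adjusted p 0.027, limma). In GR3035 its log2 fold change was -1.04, with 0.726 and 1.24 RPM in IPs, against 3.31 and 2.82 RPM in inputs. It was the 1 member called lower in any of the 3 strains.

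The next question was which IPs held a member in both replicates. A member was taken as held at 5 RPM or more in both libraries of a group. JMC248 IPs held 107 of 190 listed members, against 46 held by its inputs. GR3039 IPs held 98 of 216, against 51, and GR3035 IPs held 64 of 249, against 17. Among all features of these tables, 13.4%, 17.9% and 15.4% were held by both IPs of JMC248, GR3039 and GR3035, and 14.4%, 17.2% and 13.9% by both inputs.

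In the other strains the IPs held fewer members than the inputs at 5 RPM. JMC151 held 39 in IPs, against 44 in inputs, JMC205 28 against 47, JMC207 30 against 49, JMC101 3 against 19, JMC164 3 against 12, JMC161 6 against 19 and JMC223 0 against 36. The share of all features held by both IPs was 21%, 10.5%, 11.8%, 12.7%, 12.4%, 13% and 15.2% in these tables, and by both inputs 15.9%, 10.1%, 11.7%, 14.3%, 13.8%, 12.5% and 13%. In JMC223 input replicate 2 a single read was worth 3.07 RPM, so 5 RPM is about the level of 2 reads there, and the 36 rest on very few reads in that library. At 20 RPM the direction turned in JMC151, where 13 members were held in IPs, against 8 in inputs.

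**Figure D4:**
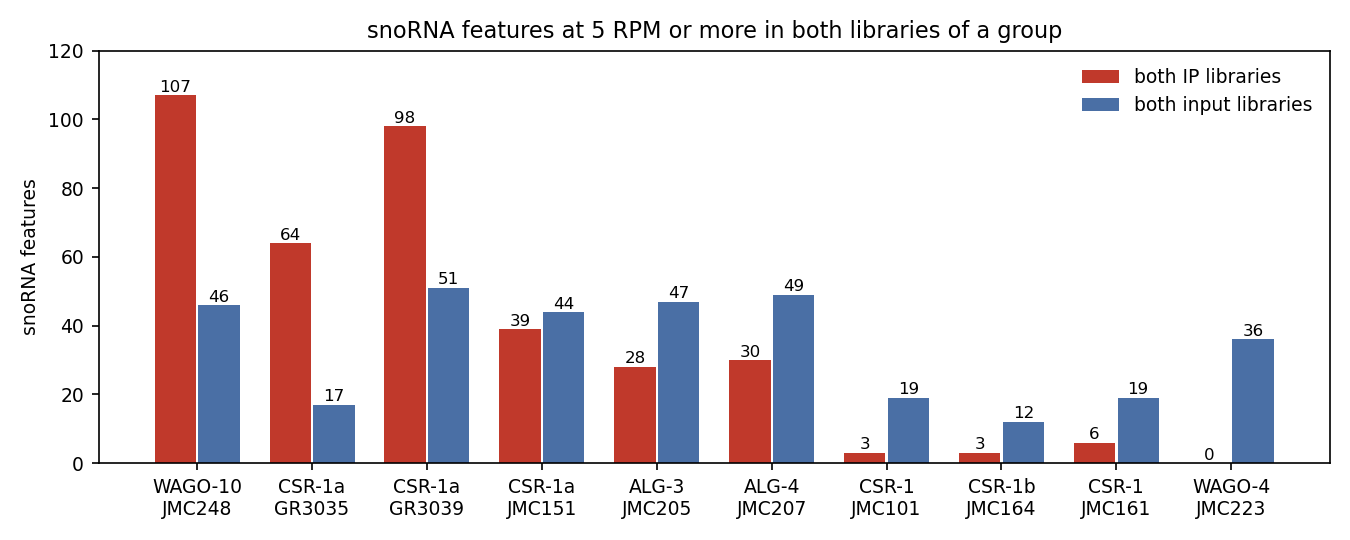
Number of snoRNA features at 5 RPM or more in both IP libraries (red, left) and in both input libraries (blue, right) of each strain. IP bars are taller than input bars in JMC248 (107 and 46), GR3035 (64 and 17) and GR3039 (98 and 51) and shorter in the other 7 strains, of which JMC151 (39 and 44) turned round at 20 RPM.

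Of the 318 members, 203 were held by no IP. The IPs of JMC248, GR3035 and GR3039 together held 113, of which 64 were held by all 3 and 67 by none of the other 7 IPs. The other 7 IPs together held 48, and 2 of these were held by none of the 3. The same overlap over all features is not given, so these counts have no background. H09I01.2 and ZK265.10 were held by 8 IPs, the most of any member, and H06I04.8, T06C12.16, Y39G10AR.24, C14C10.8 and C27H5.9 by 7. ZK265.10, outside coding genes, had 884.1 and 869.2 RPM in GR3039 IPs, against 86.9 and 101.6 RPM in inputs, and 1.28 RPM in the lower WAGO-4 IP, where neither it nor any other member was held. These 7 members were also held by both inputs of all 10 strains.

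Few members were enriched in the IPs of GFP-tagged Argonautes. M163.14 was the 1 enriched member in JMC151, with 20 and 62.1 RPM in IPs, against 3.07 and 7.35 RPM in inputs (log2 fold change 2.64, SE 0.58, adjusted p 0.00011, limma). Its groups did not overlap, but without IP replicate 2 the adjusted p was 0.13 and no member was called, while without input replicate 2 the count was 5. R151.13, inside *rpl-6*, was the 1 in JMC205, with 7.99 and 8.47 RPM in IPs, against 4.68 and 2.71 RPM in inputs, a log2 fold change of 1.01 that fell below 1 without IP replicate 2 and without input replicate 2.

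K07C10.2 and B0334.12 were enriched in both JMC101 and JMC164. K07C10.2 had 7.4 and 6.46 RPM in JMC101 IPs, against 0.779 and 0.86 RPM in inputs (log2 fold change 2.12, adjusted p 0.0012, limma), and 7.95 and 5.45 RPM in JMC164 IPs, against 0.65 and 1.42 RPM in inputs (1.93, adjusted p 0.0032, limma). It overlaps 3 other noncoding genes, K07C10.3, K07C10.6 and K07C10.8, so its reads may be shared with them. B0334.12, inside *twk-5*, had 2.58 and 2.53 RPM in JMC101 IPs, against 1.3 and 0.215 RPM in inputs. The other member enriched in JMC164, outside coding genes, had 6.61 and 3.89 RPM in IPs, against 1.9 and 1.77 RPM in inputs. In JMC101 both had 5 or fewer estimated reads in each input, so without either IP replicate they no longer reached the filter and the count was 0; it was 1 without input replicate 2. The count of 3 in JMC164 was 1 without input replicate 2.

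In the IPs of JMC101, JMC164, JMC161 and JMC223 the members called lower included several with many input reads. ZK265.10 had 5.05 and 8.67 RPM in JMC101 IPs, against 82.9 and 98.1 RPM in inputs, a log2 fold change of -3.58. In WAGO-4 IPs it had 5.75 and 1.28 RPM, against 925.5 and 70.7 RPM in inputs, a log2 fold change of -6.04 with an SE of 1.26. ZK994.7, inside *pxn-1*, in WAGO-4 IPs had 0.751 and 0 RPM, against 39.3 and 40 RPM in inputs (log2 fold change -4.94, adjusted p 0.00056, limma). R166.7, inside *mnk-1*, had 2.37 and 2.36 RPM in JMC161 IPs, against 15.5 and 17.9 RPM in inputs, a log2 fold change of -2.39. All these IP libraries lay below all of their inputs. Y39G10AR.24 was called lower in JMC101, JMC164, JMC161 and JMC223, with log2 fold changes of -3.34, -3.11, -2.60 and -4.64.

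In the ALG IPs the lowest log2 fold changes were those of F59C6.15 in JMC205 and F25H2.15 in JMC207. F59C6.15 had 0.688 and 0 RPM in ALG-3 IPs, against 7.44 and 5.85 RPM in inputs (log2 fold change -2.55), and F25H2.15 had 2.05 and 2.02 RPM in ALG-4 IPs, against 11.25 and 12.7 RPM in inputs (log2 fold change -2.09). Of their values of up to 200 reads, 29 of 33 and 35 of 37 were not whole, so these 2 are uncertain. Y116A8C.50, inside *uaf-2* and overlapping a noncoding gene, had 1.14 and 1.43 RPM in ALG-3 IPs, against 5.32 and 5.65 RPM in inputs, and 1.08 and 1.68 RPM in ALG-4 IPs, against 6.47 and 6.88 RPM in inputs.

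Enrichment was compared between IPs by the interaction of strain with IP over input (limma, adjusted p under 0.05, no threshold on size). The 3 comparisons all use the GR3035 libraries and are not independent, and each sets 2 separately scaled tables side by side. WAGO-10 in JMC248 against CSR-1a in GR3035 gave 52 of 123 members with a larger fold change in JMC248 and 2 with a smaller one, beside 4.33% and 19.2% of all features. The median difference was 1.31 for members and -0.24 for all features. Leaving out GR3035 IP replicate 2 or GR3035 input replicate 2 left 33 and 30 calls of the 54.

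Y23H5B.10 had the largest difference, 4.83 (SE 0.44, adjusted p 0.00011, limma). It had 243.5 and 361.3 RPM in JMC248 IPs, against 5.16 and 2.92 RPM in inputs, and 3.48 and 2.38 RPM in GR3035 IPs, against 0.48 and 1.26 RPM in inputs. R151.13, inside *rpl-6*, had 789.4 and 1089 RPM in JMC248 IPs, against 6.5 and 4.76 RPM in inputs, and 16.5 and 7.25 RPM in GR3035 IPs, against 0.624 and 2.01 RPM in inputs, a difference of 4.70. C53B7.8, whose values were mostly not whole reads, differed by 4.46. K07C10.2 and F19G12.14 differed by -1.22 and -1.06, both from under 3 RPM in every library of the 2 strains.

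GR3039, which carries the G91R allele, against GR3035 gave 8 of 125 members with a larger fold change and 0 with a smaller one, beside 0.286% and 0.962% of all features. At an unadjusted p under 0.05 limma gave 66 larger and 0 smaller ones. The share of all features at that unadjusted threshold is not given, so this count has no background. ZK546.18, inside *mdt-4*, had 53.6 and 110.4 RPM in GR3039 IPs, against 1.25 and 2.39 RPM in inputs, and 7.98 and 3.83 RPM in GR3035 IPs, against 1.01 and 2.47 RPM in inputs (difference 3.50, SE 0.59, adjusted p 0.032, limma). Y116A8C.50 had 81.2 and 296.4 RPM in GR3039 IPs, against 1.79 and 1.55 RPM in inputs, and 14.2 and 8.85 RPM in GR3035 IPs, against 1.49 and 1.11 RPM in inputs, a difference of 3.45. D2096.14, inside *nap-1*, differed by 2.52. The count of 8 rested on single libraries: it was 51 without GR3039 IP replicate 1, 1 without GR3039 IP replicate 2, 0 without either GR3039 input, 2 and 1 without GR3035 IP replicate 1 and 2, and 4 and 1 without GR3035 input replicate 1 and 2. The 2 strains differ by label in both the *csr-1* allele and the proteasome reporters, which cannot be told apart.

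GR3035 against JMC151, both titled CSR-1a, gave 2 of 117 members with a larger fold change and 0 with a smaller one, beside 0.0339% and 0% of all features. At an unadjusted p under 0.05 limma gave 71 larger and 1 smaller ones, again without the share of all features at that threshold. T06C12.16 had 637.1 and 397.3 RPM in GR3035 IPs, against 20.4 and 22.4 RPM in inputs, and 101.5 and 97.3 RPM in JMC151 IPs, against 76.8 and 170.4 RPM in inputs (difference 4.70, SE 0.57, adjusted p 0.046, limma). T27A3.9 had 13.9 and 11.29 RPM in GR3035 IPs, against 1.01 and 1.157 RPM in inputs, and 1.94 and 3.2 RPM in JMC151 IPs, against 9.98 and 9.35 RPM in inputs (difference 4.30, adjusted p 0.033, limma). Both calls were lost on leaving out any 1 of the 8 libraries. The median difference over members was 2.15, and over all features 0.01. By genotype GFP is on CSR-1a in JMC151 and on the proteasome reporter in GR3035, so strain and means of capture cannot be told apart.

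**Figure D5:**
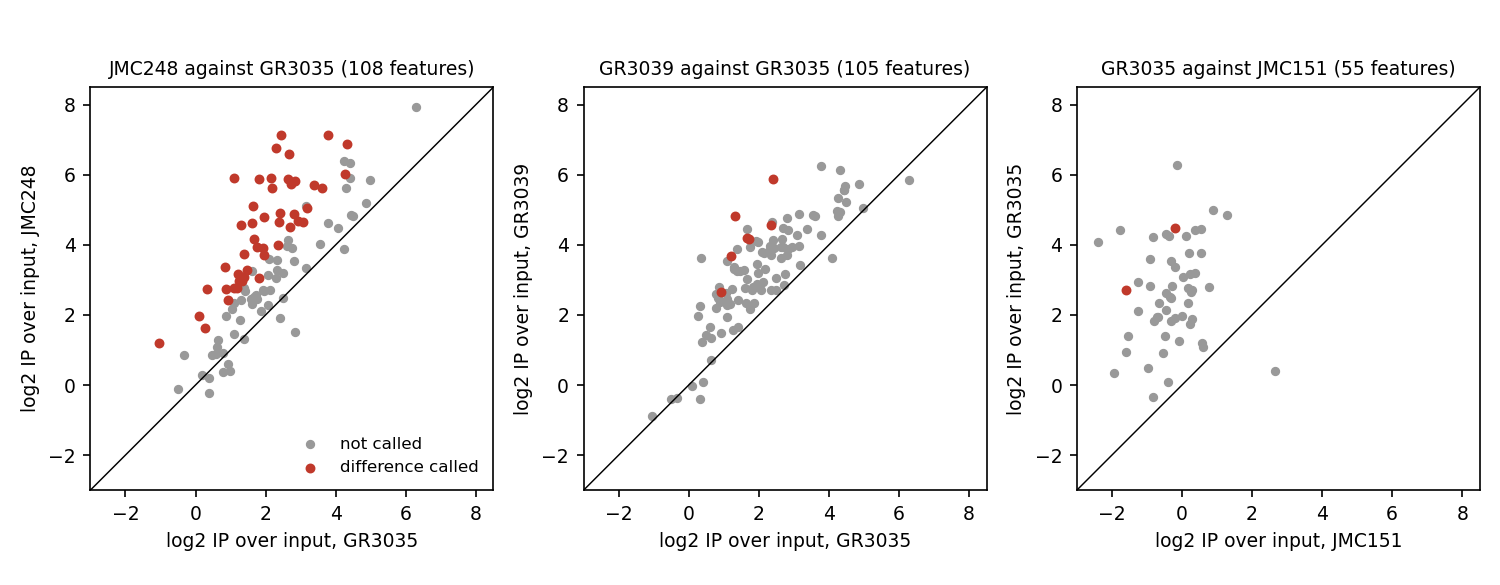
log2 fold change of IP over input of each snoRNA feature in one strain (vertical) against another (horizontal), with the line of equal values; red marks a called difference. Points are features tested in both strains, and most lie above the line. The median difference over the snoRNA features of each interaction was 1.31 for JMC248 against GR3035, 1.13 for GR3039 against GR3035 and 2.15 for GR3035 against JMC151.

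The place of the members in the genome was read from the RefSeq gene table of WBcel235 by name only, since no source used here gives the build of the deposited tables. Of the 318 members, 196 lie within a protein-coding gene and 122 outside every coding gene. The 196 lie in 173 coding genes, 23 of which hold 2 or more. *nol-56*, itself the gene of a C/D core protein, holds 4, and 13 ribosomal protein genes hold 21. In all, 41 members overlap another noncoding gene.

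Members inside and outside coding genes were both enriched. Inside, 75 of 80 tested were enriched in JMC248, 73 of 76 in GR3039 and 62 of 79 in GR3035. Outside, the counts were 27 of 34, 27 of 35 and 24 of 38. Of all features 9.73%, 12.1% and 20.9% were enriched in these strains. The other strains are not given by place. The median log2 fold changes inside and outside were 3.45 and 3.02 in JMC248, 3.55 and 2.73 in GR3039 and 1.95 and 1.29 in GR3035. The difference between the 2 places was not tested.

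Sense reads of the host genes themselves, listed as separate features, were also looked at. They were enriched for 29 of 67 tested host genes in JMC248, 25 of 113 in GR3039 and 28 of 133 in GR3035, beside 4.68%, 3.67% and 4.41% of all sense coding features in those tables. Elsewhere they were enriched for 7 of 72 in JMC151, beside 4.41%, for 5 of 116 in JMC205, beside 24.3%, and for 10 of 104 in JMC207, beside 31.1%. In the remaining strains the counts were 4 of 94 for JMC101, beside 4.63%, and 4 of 137 for JMC164, beside 1.89%. They were 8 of 112 for JMC161, beside 5.29%, and 2 of 37 for JMC223, beside 2.54%. Examples were chosen after their values were seen. The sense reads of *cdc-48.1*, which holds C06A1.8 and C06A1.9, stood at 664.8 and 630.1 RPM in JMC248 IPs, against 10.8 and 7.97 RPM in inputs, a log2 fold change of 5.98. *cgh-1*, which encodes a germline RNA helicase and holds C07H6.10, had 61.9 and 113.8 RPM in JMC248 IPs, against 4.4 and 4.45 RPM in inputs, and its log2 fold change was 3.97 in JMC248, 2.74 in GR3039 and 2.63 in GR3035. Reads of a snoRNA and of its host on the same strand overlap, and how the authors assigned them is not stated, and the 2 are uncertain against each other.

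The genes of the core snoRNA-binding proteins were read on the antisense strand. The 8 genes are *fib-1* (the methyltransferase fibrillarin), *nol-56*, *nol-58* and *snu-13* of the C/D complex and *dkc-1* (dyskerin, the pseudouridine synthase), *garr-1*, Y48A6B.3 and *nola-3* of the H/ACA complex. Small RNAs antisense to all 8 were enriched in JMC101, JMC164, JMC161 and JMC223, where 54.5%, 50.7%, 56% and 68.2% of all antisense coding features were enriched. In the other 6 strains 0 of the 7 or 8 tested were enriched, where 10.4% to 42.5% of all antisense coding features were. Antisense *fib-1* had 503.2 and 559.3 RPM in JMC101 IPs, against 61.6 and 75.1 RPM in inputs, and 32.3 and 23.5 RPM in JMC248 IPs, against 31.5 and 24.9 RPM in inputs.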

How the data were processed

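Per the labels' protocols, small RNA of 2 IP and 2 input libraries of each of 10 strains was sequenced after a 5′ polyphosphatase step. The submitters' processing notes name cutadapt, STAR, FastQC and DESeq2; no source used here gives the build, annotation or versions. The deposited tables hold RPM values scaled by the authors to 1000000 in each library, with an offset of 0.01 read from the values. Reads were estimated from the step between low values. Of low snoRNA values, 81.9% to 100% in a library were whole reads within 0.02, so the values were not treated as counts and the planned fallback, limma 3.58.1 with trend (R 4.3.3) on log2(RPM + 1), was used with Benjamini-Hochberg adjustment over all features tested. The script was tested on simulated data.

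Features needed 10 reads in 2 of 4 libraries. Named members were, where 5 or more were enriched, the 5 largest enrichments, the 5 highest by IP RPM and up to 5 tested but not enriched; elsewhere every enriched member and the 5 largest called changes; 3 called at each end of an interaction; and up to 5 held in most IPs. The member enriched in JMC164 beside K07C10.2 and B0334.12 is given by its values, without its name. Members and lists were chosen with earlier results of these data known. Reads in no feature, 2.60% to 10.8% of a library, stayed out of tests. No 2 libraries were identical (0 pairs). The labels do not say that replicates were separate cultures, so p-values measure only the spread between these samples. PCR reads carried no molecular identifiers, so read numbers cover counting error only. Alternatives were the pseudocount, filter, scaling, replicate block, thresholds and leaving out each library. The 12 mRNA samples and 3 GR3043 inputs were not analysed here.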

Additional observations from a re-analysis of the deposited data

Results flagged for a closer look

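Enrichment of some members differed between strains by the interaction test of limma (adjusted p under 0.05). JMC248 against GR3035 gave 54 members. The differences on the log2 scale were 4.83 for Y23H5B.10, 4.70 for R151.13, 4.46 for C53B7.8, -1.22 for K07C10.2 and -1.06 for F19G12.14. GR3039 against GR3035 gave 8 members, with differences of 3.50 for ZK546.18, 3.45 for Y116A8C.50 and 2.52 for D2096.14. GR3035 against JMC151 gave 2 members, with differences of 4.70 for T06C12.16 and 4.30 for T27A3.9. The last 2 counts rest on single libraries, and all 3 comparisons use the GR3035 libraries.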

How the results depend on the processing

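The counts of enriched members in JMC248, GR3035 and GR3039 stayed within 1.5 times under every alternative run. Small counts moved. With a pseudocount of 0.1 RPM, enriched members were 3 in JMC205, 1 in JMC207 and 2 in JMC161, and differing members were 0 for GR3039 against GR3035, 0 for GR3035 against JMC151 and 26 for JMC248 against GR3035. With 5 RPM they were 0 in JMC205, 1 in JMC101, 0 in JMC164 and 34 for GR3039 against GR3035. With no filter they were 0 in JMC151, 1 in JMC101, 0 for GR3039 against GR3035, 0 for GR3035 against JMC151 and 23 for JMC248 against GR3035. Scaled by the median of ratios they were 3 in JMC205 and 0 for GR3035 against JMC151; this moved the median of all features to -0.06 in JMC248, against -0.30, and to 0.93 in JMC223, against 2.26. Scaled without structural RNAs they were 0 in JMC205, 1 in JMC101 and 1 for GR3035 against JMC151. Among members with 10 reads in both inputs, enriched ones were 0 in JMC151, JMC101 and JMC164. The cause of these moves was not tested.

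Replicate numbers were not shown to pair the samples: same-numbered libraries deviated together with r from -0.02 to 0.41, over 2 pairs a strain. With a replicate block, enriched members were 2 in JMC151, and differing members were 27 for GR3039 against GR3035 and 0 for GR3035 against JMC151.

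Leaving out 1 library gave 0 to 5 enriched members in JMC151, 0 to 1 in JMC205, 0 to 3 in JMC101, 1 to 2 in JMC164 and 0 to 1 in JMC161. Differing members were 0 to 51 for GR3039 against GR3035, 0 to 0 for GR3035 against JMC151 and 30 to 60 for JMC248 against GR3035. The JMC151 share gap ran from -0.114 to 0.042 points, the positive value without input replicate 2.

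The GR3039 gap was 2.04 points without its leading member, and the JMC205 gap was -0.0421 points among reads other than rRNA, tRNA and snRNA. Members held at 20 RPM were 30 in GR3035, 13 in JMC151 (against 8 in its inputs), 8 in JMC205, 8 in JMC207 and 0 in JMC101, JMC164 and JMC161. At 10 estimated reads they were 111 in GR3035, 85 in JMC205, 90 in JMC207, 19 in JMC101, 10 in JMC164 and 38 in JMC161. Of 898 alternatives over 88 named fold changes, 117 lost and 15 gained a call, and 1 turned sign with a call, F43A11.8 in JMC248 at 1.22 without input replicate 2; it stood at -1.44 without input replicate 1. Depth limits JMC223 most, where 3 reads of input replicate 2 are 9.22 RPM.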

Other observations

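Reads antisense to snoRNA loci are listed as separate features, 155 in all. The feature antisense to B0334.12 had 3976 and 9174 RPM in JMC248 IPs, against 77.6 and 39.8 RPM in inputs, a log2 fold change of 6.74. It had 4011 and 6289 RPM in GR3039 IPs, against 66.2 and 85.4 RPM in inputs (6.04), and 907.1 and 332.1 RPM in GR3035 IPs, against 21.7 and 21.3 RPM in inputs (4.61). In JMC101 it had 1.66 and 1.14 RPM in IPs, against 57.9 and 38.1 RPM in inputs (-4.33). It made up 85.1% and 94.2% of the snoRNA antisense reads of JMC248 IP replicates 1 and 2. It was chosen after its values were seen.

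The feature antisense to F47E1.19, also chosen after its values were seen, was enriched in JMC161, with 862.9 and 1025 RPM in IPs, against 214.8 and 196.3 RPM in inputs (2.19). In JMC151 it had 607 and 1502 RPM in IPs, against 167.4 and 312 RPM in inputs (2.06). In JMC207 it had 11.7 and 15.2 RPM in IPs, against 311.2 and 290.9 RPM in inputs (-4.40). Antisense features called enriched were 5 of 26 tested for JMC248, 11 of 41 for GR3035, 5 of 29 for GR3039 and 4 of 16 for JMC151, where 10.4%, 33.2%, 16.7% and 42.5% of features antisense to coding genes were enriched. They were 23 of 50 for JMC101, 21 of 43 for JMC164, 22 of 43 for JMC161 and 6 of 24 for JMC223, where the share was 54.5%, 50.7%, 56% and 68.2%. In JMC205 0 of 31 and in JMC207 0 of 28 were enriched, where it was 28.9% and 33.1%. In each of these 2 strains 17 were lower. Beside them, 3032 of 9795 features antisense to coding genes were lower in JMC205 and 3202 of 9542 in JMC207. Lower calls in the other strains, 2 to 6 in each, are given without such a background.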
